A study of Aspergillus oryzae with 20 samples.

Results

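The fmp genes of Aspergillus oryzae, the filamentous fungus used to make koji, were followed as 9 neighbouring genes out of 12074 listed. They were chosen by locus tag, and 4 of them carry a symbol: fmpF (AO090001000010), fmpB (AO090001000013), fmpA (AO090001000015) and fmpR (AO090001000018). The other members, AO090001000011, AO090001000012, AO090001000016, AO090001000017 and AO090001000019, have no symbol and are given no role here. The choice was made knowing that fmpR was high in ΔadmA replicates 2 to 5, so every difference between ΔadmA and another strain is given as a description, with no test. The tag AO090001000014 lies between fmpB and fmpA but is not among the members; its values are given beside theirs.

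Genes for a fungal secondary metabolite commonly lie side by side in the genome. Such a cluster usually holds an enzyme that builds the backbone of the compound, enzymes that modify it, and often a transcription factor that switches on its neighbours. Many clusters are nearly silent in culture, and broad regulators such as the velvet protein VeA act on several of them at once. The symbols fmpA to fmpR are shared with the fumipyrrole cluster of Aspergillus fumigatus, in which fmpR encodes the transcription factor of the cluster. Whether the A. oryzae genes make a product of that kind was not measured.

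Messenger RNA was sequenced from 4 strains of RIB40 background, each in 5 libraries. All 4 strains carry the pyrG deletion and are labelled pyrG+ and ligD+; the deletion control has no further deletion, ΔadmA lacks admA, ΔadmB lacks admB, and ΔadmAΔadmB lacks both. The genes admA and admB encode ADAM proteins, membrane-anchored metalloproteases. Cultures were grown on wheat bran solid medium at 30 °C for 72 h, but no label ties a library to its own flask or a strain to more than 1 isolate. The p-values below therefore rest on differences among the sequenced libraries, and these differences may be technical.

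Levels are in RPKM, read numbers per length of gene and per size of library. The gene admA was at 0 in 9 of the 10 libraries of strains that lack it (highest 0.092 RPKM) and above 0 in 9 of the 10 others. Depth in reads is not given, but the spacing of low values placed relative depth within a 2.50-fold range in 12 libraries (set 1) and within a 1.69-fold range in the other 8 (set 2). Set 2 holds control replicates 2, 3 and 4, ΔadmA replicates 2 and 3, ΔadmB replicate 2 and ΔadmAΔadmB replicates 2 and 3. The labels give no reason for the sets. RNA came from whole cultures, in which fewer cells of a type and less RNA per cell cannot be told apart. The 8 genes listed as markers of conidiation, the forming of spores and the structures that bear them, include regulators such as flbA. Their sum is therefore no measure of spore content. Summed RPKM of the 8 was 228 to 1013 in the control and 196 to 2235 in ΔadmA. It was 163 to 375 in ΔadmB and 174 to 1664 in ΔadmAΔadmB. Most of the highest sums was 1 marker, ayg1, at up to 738 RPKM in the control, 1745 in ΔadmA and 1528 in ΔadmAΔadmB. The markers went in both directions: wetA averaged 12.8 RPKM in the control and 10.6 in ΔadmA, and flbA 74.8 and 114. The part of conidiation in the results was not tested.

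The gene of the putative cluster regulator, fmpR, was at 5.98 RPKM or below in 16 libraries and at 7.07 RPKM or above in 4, all of them ΔadmA. In the control, fmpR was at 0.521, 1.29, 1.42, 2.48 and 5.98 RPKM in replicates 1 to 5. In ΔadmA it was at 0.236, 7.07, 10.8, 23.9 and 33.0 RPKM. ΔadmA replicates 2, 3, 4 and 5 all lay above the highest of the 15 libraries of the other strains, while ΔadmA replicate 1 was the lowest of all 20, so the groups overlapped. In ΔadmB the 5 values were 1.08, 0.936, 0.954, 2.96 and 2.41 RPKM, and in ΔadmAΔadmB they were 0.977, 1.04, 0.651, 1.16 and 1.97 RPKM. These 2 strains overlapped each other and the control, and none of their libraries reached the highest control value. The control averaged 2.34 ± 2.15 RPKM (SD, n = 5) and ΔadmA 15.001 ± 13.2 RPKM. The averages of ΔadmB and ΔadmAΔadmB were 1.67 ± 0.949 and 1.16 ± 0.490 RPKM. On the log2(RPKM + 1) scale, which understates changes of low genes, fmpR was higher in ΔadmA than in the control by 1.79 (SE 0.65), and by 2.54 without ΔadmA replicate 1.

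The values of fmpR were whole multiples of 1 step in each library, so the reads behind them could be estimated if 1 step is 1 read or read pair. By that reading the control held 15, 22, 23, 34 and 87 steps in replicates 1 to 5, and ΔadmA held 4, 164, 189, 420 and 442. The exact Poisson 95% interval, which covers counting error only, ran from 0.064 to 0.603 RPKM in ΔadmA replicate 1 and from 6.03 to 8.23 RPKM in ΔadmA replicate 2. The interval of the highest control library, replicate 5, ran from 4.79 to 7.38 RPKM. The intervals of ΔadmA replicate 2 and control replicate 5 overlapped; they say nothing of the spread between cultures.

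**Figure D1:**
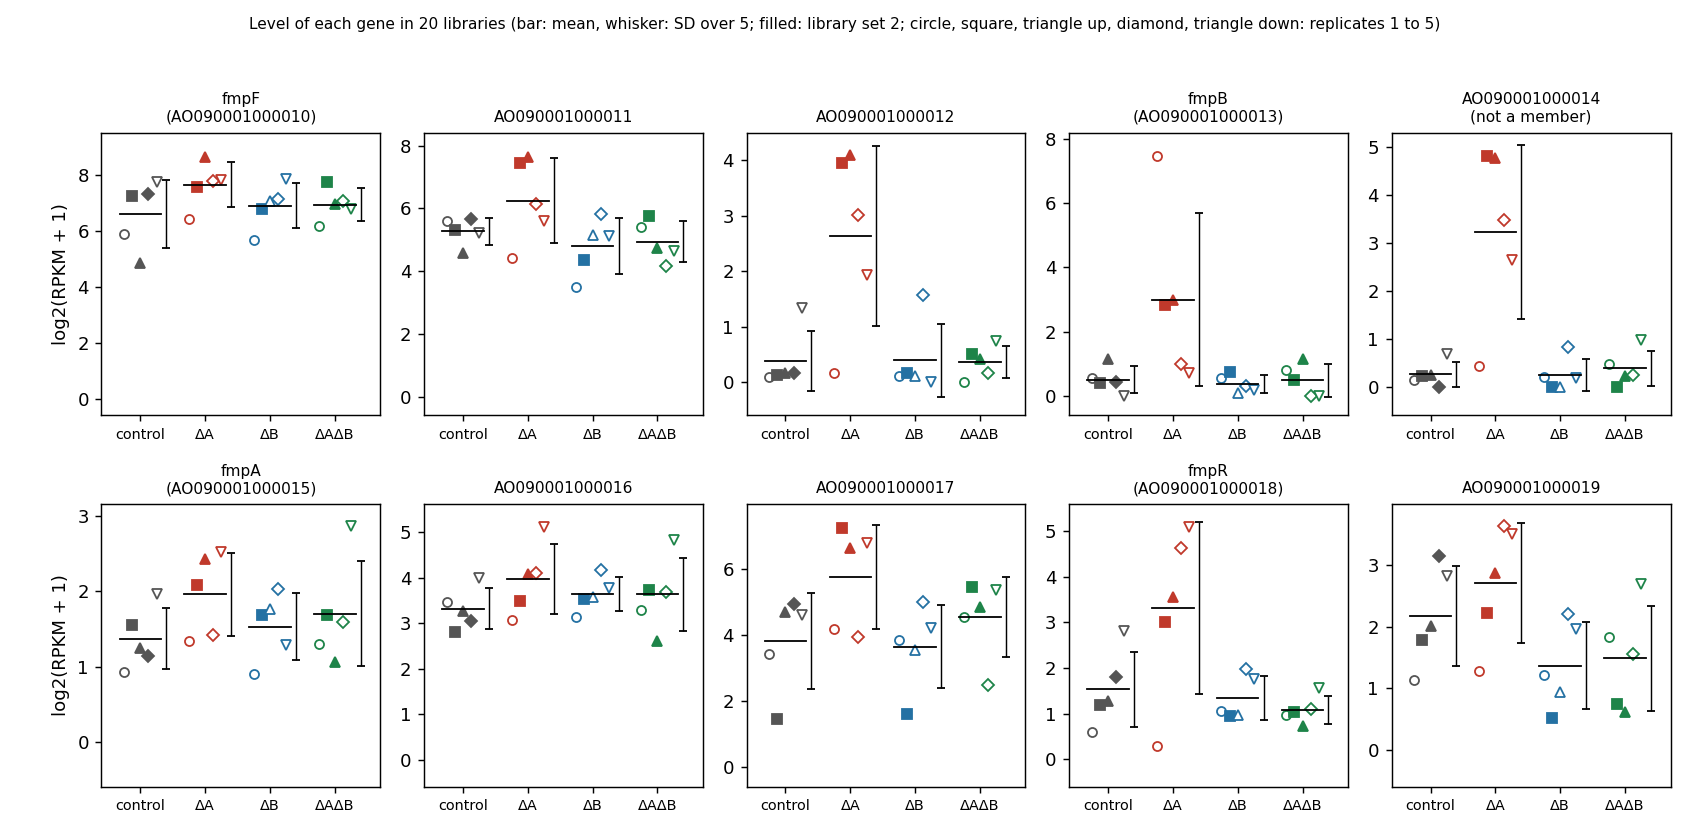
Level of the 9 members and of AO090001000014 as log2(RPKM + 1) in each of the 20 libraries (ΔA, ΔB and ΔAΔB are ΔadmA, ΔadmB and ΔadmAΔadmB); bars are means, whiskers the SD over 5 libraries, filled symbols library set 2, and symbol shapes the replicate numbers. ΔadmA replicates 2 to 5 stand above the other strains in fmpR and AO090001000012, while in fmpB it is ΔadmA replicate 1, at 174 RPKM, that stands farthest out.

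The members differed in how high they lay and in which ΔadmA library was highest. The member with the highest mean in each strain was fmpF. Its levels were 58.4, 150, 27.5, 160 and 216 RPKM in the 5 control libraries, and ΔadmA held 84.0, 190, 400, 218 and 223 RPKM. In ΔadmB fmpF was at 49.95, 109, 133, 141 and 228 RPKM, and in ΔadmAΔadmB at 70.2, 215, 123, 133 and 108 RPKM. One library, ΔadmA replicate 3, exceeded the other strains, replicate 1 was the lowest library of each strain except the control, and all 4 strains overlapped. The mean of fmpF was 122 ± 77.4 RPKM (SD, n = 5) in the control and 223 ± 114 in ΔadmA, a log2 difference of 1.03 (SE 0.53).

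At the other end of the range, fmpB was close to 0 in most libraries. It was at 0.482, 0.342, 1.24, 0.349 and 0 RPKM in the control, and at 174, 6.05, 6.91, 0.989 and 0.652 RPKM in ΔadmA. ΔadmA replicate 1, the library with the lowest fmpR, held the highest fmpB of all 20. In ΔadmB fmpB was at 0.477, 0.682, 0.0638, 0.253 and 0.140 RPKM, and in ΔadmAΔadmB at 0.759, 0.406, 1.25, 0 and 0 RPKM. ΔadmA replicates 1, 2 and 3 exceeded every library of the other strains, and ΔadmA replicates 4 and 5 lay among them. The log2 difference of fmpB between ΔadmA and the control was 2.48 (SE 0.84), and 1.36 without ΔadmA replicate 1. Its mean of 37.6 ± 76.0 RPKM (SD, n = 5) in ΔadmA rests on that replicate.

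The gene fmpA ranged from 0.865 to 6.34 RPKM over all libraries. It was at 0.900, 1.93, 1.38, 1.20 and 2.92 RPKM in the control and at 1.53, 3.25, 4.39, 1.67 and 4.75 RPKM in ΔadmA. ΔadmB libraries held 0.865, 2.21, 2.39, 3.07 and 1.44 RPKM, and ΔadmAΔadmB libraries 1.46, 2.21, 1.09, 2.02 and 6.34 RPKM. The highest of the 20 was a double deletion library, replicate 5, and no ΔadmA library exceeded it. Mean levels were 1.67 ± 0.793 RPKM (SD, n = 5) in the control and 3.12 ± 1.49 in ΔadmA, a log2 difference of 0.59 (SE 0.34).

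Among the members without a symbol, AO090001000012 showed the clearest off and on pattern. In the control it was at 0.0714, 0.0940, 0.127, 0.117 and 1.53 RPKM, and in ΔadmA at 0.121, 14.4, 16.1, 7.11 and 2.84 RPKM. In ΔadmB the values were 0.0786, 0.1203, 0.0852, 1.96 and 0 RPKM, and in ΔadmAΔadmB 0, 0.429, 0.335, 0.126 and 0.674 RPKM. As for fmpR, ΔadmA replicates 2 to 5 lay above all 15 libraries of the other strains, and ΔadmA replicate 1 was among the low ones. The log2 difference of AO090001000012 between ΔadmA and the control was 2.25 (SE 0.57), and 2.87 without ΔadmA replicate 1. This gene reached 1 RPKM in 6 libraries and fmpB in 5, so both entered the fits largely through ΔadmA.

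The neighbouring AO090001000011 was at 47.5, 38.4, 23.2, 49.7 and 35.8 RPKM in the control, and at 20.3, 174, 201, 69.7 and 47.0 RPKM in ΔadmA. Its ΔadmB levels were 10.2, 19.5, 34.8, 55.8 and 34.1 RPKM, and its ΔadmAΔadmB levels 41.8, 53.3, 25.7, 16.8 and 24.1 RPKM. ΔadmA replicates 2, 3 and 4 exceeded the other 15 libraries, and ΔadmA replicate 1 was below all 5 control libraries. The log2 difference between ΔadmA and the control was 0.98 (SE 0.54).

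For AO090001000017 the control libraries held 9.63, 1.74, 24.8, 29.4 and 23.3 RPKM, and the ΔadmA libraries 17.1, 149, 96.7, 14.3 and 108 RPKM. The ΔadmB libraries held 13.2, 2.03, 10.7, 30.6 and 17.5 RPKM, and the ΔadmAΔadmB libraries 22.4, 42.3, 27.5, 4.63 and 40.1 RPKM. ΔadmA replicates 2, 3 and 5 exceeded the other strains, whereas replicate 4, which was high in fmpR, lay inside the control range. The log2 difference was 1.93 (SE 0.83).

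The remaining pair of members overlapped widely between ΔadmA and the control. AO090001000016 was at 6.01 to 14.9 RPKM in the control (median 8.62) and at 7.42 to 33.7 RPKM in ΔadmA (median 16.1), a log2 difference of 0.66 (SE 0.39). It was at 7.79 to 17.1 RPKM in ΔadmB and at 5.08 to 27.6 RPKM in ΔadmAΔadmB, where replicate 5 was the high library. AO090001000019 was at 1.19, 2.43, 3.01, 7.83 and 6.03 RPKM in the control and at 1.44, 3.68, 6.30, 11.4 and 10.4 RPKM in ΔadmA, a log2 difference of 0.53 (SE 0.51). In both strains its replicates 4 and 5 were the high ones. In ΔadmB its levels were 1.31, 0.428, 0.910, 3.60 and 2.88 RPKM, and in ΔadmAΔadmB 2.54, 0.679, 0.529, 1.94 and 5.44 RPKM, so that all 4 strains overlapped.

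The gene left out of the member list, AO090001000014, had high and low libraries like those of AO090001000012. It was at 0.102, 0.172, 0.182, 0 and 0.607 RPKM in the control and at 0.347, 27.2, 26.4, 10.0 and 5.27 RPKM in ΔadmA. In steps these were 1, 1, 1, 0 and 3 in the control and 2, 214, 156, 60 and 24 in ΔadmA. Across the 10 ΔadmB and ΔadmAΔadmB libraries it was at 0.965 RPKM or below, so ΔadmA replicates 2 to 5 again stood above all others and ΔadmA replicate 1 did not. It reached 1 RPKM in those 4 libraries only and so was not tested.

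All 9 members passed the filter of at least 1 RPKM in at least 5 libraries, as did 10652 genes in all. In ΔadmA against the control, 9 of 9 log2 differences were positive, with a median of 1.03, and 5 were at least 1; over all tested genes the median was 0.00, 49.8% were positive and 6.76% were at least 1. Between ΔadmA and the control 0 of 9 members were without overlap upward or downward, against 0.92% and 1.06% of all tested genes. In 8 of the members ΔadmA replicate 1 was below the highest control library, the exception being fmpB. In ΔadmAΔadmB against ΔadmA, 9 of 9 log2 differences were negative, with a median of -1.22 and a range from -2.50 in fmpB to -0.26 in fmpA. Here too 0 of 9 members were without overlap, against 1.20% of all tested genes that were lower and 1.33% that were higher without overlap. Without ΔadmA replicate 1 the median difference from the control was 1.36. These counts describe how the members were chosen, and nothing is read from them.

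Library by library, 1 member in ΔadmA replicate 1 lay above the highest of the 15 libraries of the other strains, as did 5 in replicate 2, 6 in replicate 3, 4 in replicate 4 and 5 in replicate 5. The single member in replicate 1 was fmpB. Replicates 2 and 3 shared high AO090001000011, AO090001000012, fmpB, AO090001000017 and fmpR, and replicates 4 and 5 shared high AO090001000012, fmpR and AO090001000019. ΔadmA replicates 2 and 3 belong to library set 2 and the other ΔadmA libraries to set 1. The log2 difference of fmpR between ΔadmA and the control was 1.64 within set 1 (3 and 2 libraries) and 1.87 within set 2 (2 and 3 libraries). For AO090001000012 it was 0.99 and 3.86, for AO090001000017 0.96 and 3.23, and for AO090001000011 -0.02 and 2.37. The 6 set 2 libraries of the other strains held AO090001000012 at 0.094 to 0.429 RPKM and AO090001000011 at 19.5 to 53.3 RPKM, below both ΔadmA libraries of that set.

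Co-expression of the members was described over the 20 libraries with Pearson's r of log2(RPKM + 1). The 20 points share 4 strains and 2 library sets, and deviations from the strain means correlated above 0.1 in 19 of 30 pairs of libraries with the same replicate number, so no p is given. Over the 36 pairs of members the median r was 0.48, from -0.22 to 0.83, and 17 pairs exceeded 0.5. Among 10643 pairs of neighbouring tested genes anywhere in the genome, the median was 0.14 and 20.1% exceeded 0.5. The 36 pairs join every member with every other, whereas the neighbouring pairs hold only genes next to each other, so these measures are not alike. Without the ΔadmA libraries, on which the choice of members rested, the median over the 36 pairs was 0.32 and 5 pairs (13.9%) exceeded 0.5, against 0.14 and 22.2% of the neighbouring pairs. After each strain's mean was subtracted, the median of the members was 0.36.

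The regulator gene moved most closely with its neighbour AO090001000019 (r = 0.83, Spearman's rho 0.90), and r was 0.79 in the 15 libraries without ΔadmA and 0.74 without the 2 libraries farthest from the median of fmpR. AO090001000019 ranked 42 among the 10651 other tested genes by r with fmpR, and AO090001000012 ranked 75 (r = 0.79, rho 0.66). All ranks given here use the 20 libraries, so they include the ΔadmA libraries behind the choice of members. In the 15 libraries AO090001000012 had r = 0.68 with fmpR but rho of 0.41. The gene fmpA moved instead with the adjacent AO090001000016 (r = 0.79; 0.82 in the 15 libraries), while its r with fmpR was 0.53, at rank 860. AO090001000011 and AO090001000012 had r = 0.81 over 20 libraries and 0.29 in the 15, so this pair rested on ΔadmA. AO090001000012 and the uncounted AO090001000014 had r = 0.97. In the 15 libraries they had r = 0.72 but rho of 0.43, with AO090001000014 at 0.965 RPKM or below.

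The exception was fmpB. Its median r with the other 8 members was -0.03, from -0.22 to 0.24, and with fmpR it was -0.06, at rank 5355 of 10651. Within set 2, fmpB and fmpR had r = 0.87 over 8 libraries, and within set 1 they had r = -0.26 over 12. The value in set 2 rested on ΔadmA replicates 2 and 3, with fmpB at 6.05 and 6.91 RPKM. The 6 other libraries of that set held fmpB at 0.341 to 1.25 RPKM. ΔadmA replicates 4 and 5, with the highest fmpR, held fmpB at 0.989 and 0.652 RPKM. Without the 5 ΔadmA libraries fmpB had r = -0.51 with fmpR and a median r of -0.46 with the other members, at fmpB levels of 1.25 RPKM or below.

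**Figure D2:**
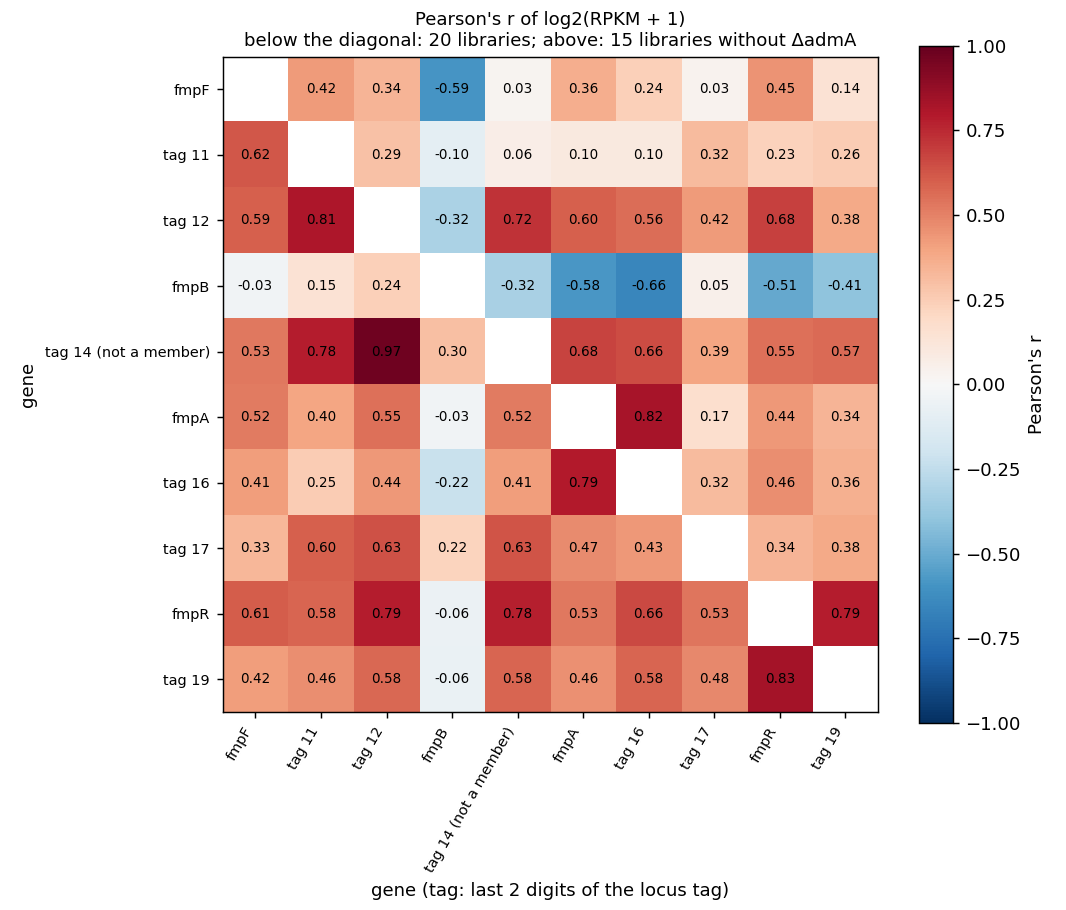
Pearson's r of log2(RPKM + 1) between members and AO090001000014, over 20 libraries (below the diagonal) and over the 15 libraries that are not ΔadmA (above it); colour gives r, and tags are the last digits of the locus tag. Over 20 libraries the pairs of fmpB with other members lie between -0.22 and 0.24, and the pairs fmpR with AO090001000019 and fmpA with AO090001000016 keep r of 0.79 and 0.82 in the 15.

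**Figure D3:**
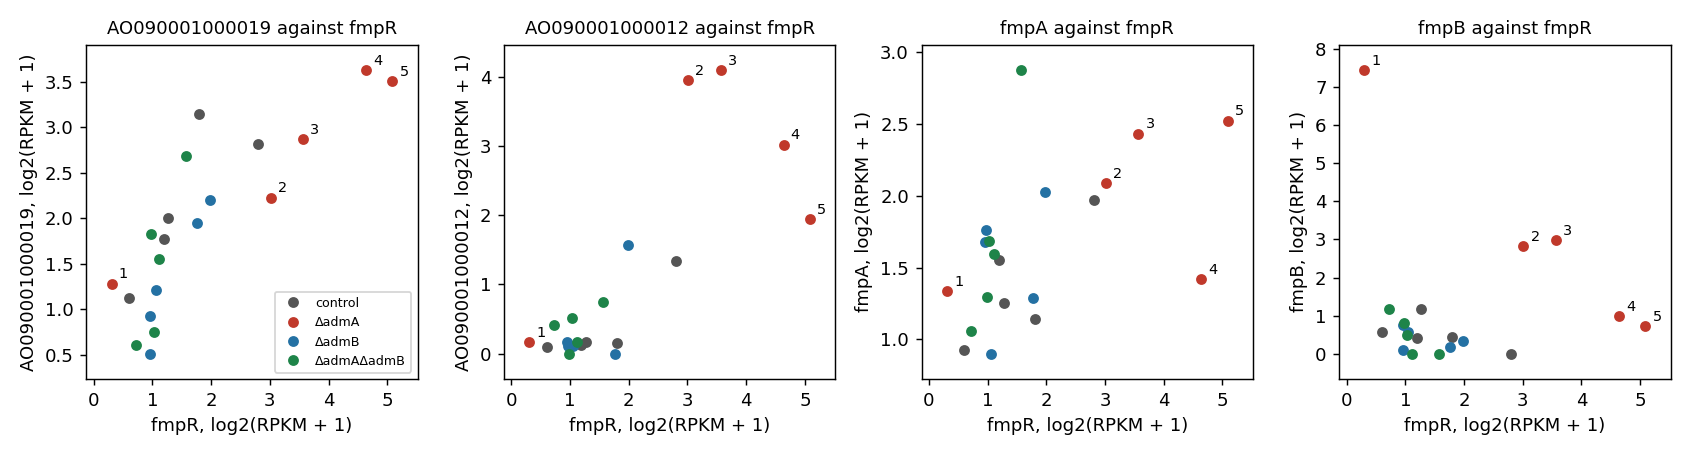
Level of other members against fmpR, both as log2(RPKM + 1), 1 point per library, coloured by strain, with the ΔadmA replicates numbered. ΔadmA replicates 2 to 5 lie at the right, with fmpR at 7.07 to 33.0 RPKM, and ΔadmA replicate 1 at the far left, at 0.236 RPKM.

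Of 10651 other genes, 227 (2.13%) had r above 0.7 with fmpR, and the median over all was -0.06. The 10 genes most like fmpR outside the cluster had r from 0.88 to 0.94, none carried a symbol and none lay among the flanking tags. The most like, AO090010000678, had r = 0.94 and rho = 0.81 over the 20 libraries, with means of 3.86 RPKM in the control and 21.7 RPKM in ΔadmA. In the 15 libraries without ΔadmA its r was 0.65. For fmpA the most like gene was AO090701000603 (r = 0.92, rho 0.89; 0.91 in the 15 libraries).

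The contrasts that did not enter the choice of members were tested with limma across all 10652 genes. Over the 15 libraries without ΔadmA, the medians of AO090001000012 and fmpB were 0.120 and 0.349 RPKM. A fall in either could hardly have been seen, so their part in the counts below says little. For fmpR the control mean of log2(RPKM + 1) was 1.70 in set 1 and 1.42 in set 2, beside an SE of 0.65. Even a full loss of fmpR would thus be small beside its SE, and its results below say little about a fall. In ΔadmB against the control, 0 of 9 members passed an adjusted p of 0.05, as did 0% of all genes. With sample quality weights in the same fit, 746 of the 10652 genes passed, and still 0 of the 9 members. At an unadjusted p under 0.05, without weights, the counts were 0 of 9 members and 864 genes (8.11%). The log2 differences of the members were positive in 4 and negative in 5, with a median of -0.13. The one farthest from 0 was AO090001000019, at 4.10 ± 2.74 RPKM (SD, n = 5) in the control and 1.83 ± 1.35 RPKM in ΔadmB, a log2 difference of -0.81 (SE 0.51, limma adjusted p = 0.688). For fmpR the difference was -0.19 (SE 0.65, limma adjusted p = 0.942), and 0.13 without control replicate 5.

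In ΔadmAΔadmB against the control, 0 of 9 members passed in limma, as did 0% of all genes; at an unadjusted p under 0.05 there were 0 members and 519 genes (4.87%). The members' median log2 difference was -0.01, with 4 positive and 5 negative. It ran from -0.69 in AO090001000019 (SE 0.51) to 0.72 in AO090001000017 (SE 0.83), both with a limma adjusted p of 0.993. For fmpR it was -0.45 (SE 0.65, limma adjusted p = 0.993), but -0.13 without control replicate 5 and -0.68 without control replicate 1. The strain lacking both genes thus had fmpR at 0.651 to 1.97 RPKM, inside the control range of 0.521 to 5.98 RPKM.

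In ΔadmAΔadmB against ΔadmB, 0 of 9 members passed in limma, as did 0% of all genes; at an unadjusted p under 0.05 there were 0 members and 612 genes (5.75%). The median was 0.11, with 6 differences positive and 3 negative. AO090001000017 differed by 0.90 (SE 0.83, limma adjusted p = 0.943), at 14.8 ± 10.5 RPKM (SD, n = 5) in ΔadmB and 27.4 ± 15.2 RPKM in ΔadmAΔadmB. The regulator fmpR differed by -0.26 (SE 0.65, limma adjusted p = 0.992). No member had groups that did not overlap in any of these 3 contrasts, while 0.544%, 0.319% and 0.422% of all genes were higher without overlap and 0.573%, 0.282% and 0.479% were lower. With standard errors from 0.34 in fmpA to 0.84 in fmpB, these results do not show that the strains had equal levels. Each SE rests on 1 spread shared over the 4 strains, ΔadmA included, and is not the spread of the compared strains alone. For fmpB the SD was 76.0 RPKM in ΔadmA, but 0.459 in the control, 0.254 in ΔadmB and 0.533 in ΔadmAΔadmB. In simulated libraries of ΔadmB against the control, the same fit recovered 74% of 100 genes changed by 2 log2 units and 91% of 100 changed by 4. The changed genes were drawn from all tested genes, with normal noise of each gene's spread. These shares are therefore not the members' own, and the chance of seeing such a change in a member was not estimated.

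**Figure D4:**
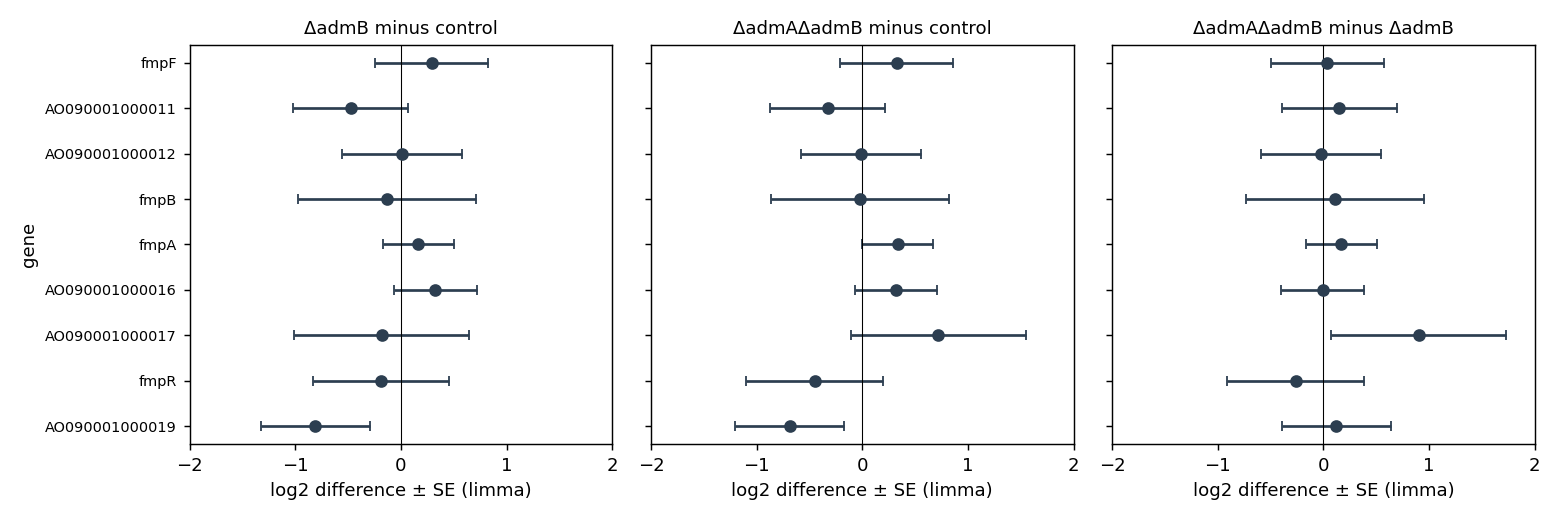
Log2 difference of each member with its SE from limma (1 mean per strain over 20 libraries) in the 3 contrasts that did not enter the choice of members. All points lie between -0.81 and 0.90, and none passed the threshold of 0.05 on the adjusted p.

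A further gene with an fmp symbol, fmpC (AO090003001279), lies on another contig and is not a member. The control averaged 1.87 ± 1.87 RPKM (SD, n = 5), ΔadmA 0.929 ± 0.718, ΔadmB 2.48 ± 4.38 and ΔadmAΔadmB 0.613 ± 0.173 RPKM. Unlike all 9 members, its log2 difference between ΔadmA and the control was negative, at -0.47 (SE 0.50).

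Genes beside the cluster differed from the control in both directions in ΔadmA. Of 45 further tags of the contig among its first 60, 31 passed the filter. In ΔadmA against the control 23 of these 31 had a positive log2 difference and the median was 0.60, beside 49.8% positive and a median of 0.00 over all tested genes. The 31 differences ran from -1.41 to 4.36, beyond the members' range of 0.53 to 2.48 in both directions. The ΔadmA values lay wholly above those of the control in 3 of the 31 and wholly below in 1, beside 0.92% and 1.06% of all tested genes. These counts come from the contrast behind the choice of the members and were not tested. At the edges of the cluster, AO090001000009 was at 6.82 ± 1.79 RPKM (SD, n = 5) in the control and 11.2 ± 3.67 in ΔadmA, and AO090001000020 was at 218 ± 155 and 128 ± 60.4 RPKM. None of the 31 passed in the 3 tested contrasts (smallest limma adjusted p = 0.606).

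Genes with symbols of the gliotoxin cluster of A. fumigatus stand among these flanking tags, and their r with AO090001000012 varied widely. The gene gliI (AO090001000033), a carbon-sulphur lyase in A. fumigatus, had r = 0.78 with it, gliC (AO090001000041), a cytochrome P450 there, had r = 0.65, and gliK (AO090001000030) had r = 0.61. Lower were gliM (AO090001000039), a methyltransferase gene there, at 0.39, and gliG (AO090001000040), for a glutathione S-transferase, at 0.31. The dipeptidase gene gliJ (AO090001000042) had r = -0.08 and was lower in ΔadmA than in the control, with a log2 difference of -0.62. With fmpR, r was 0.485 for gliI, 0.61 for gliC, 0.39 for gliK, 0.37 for gliM, 0.36 for gliG and -0.16 for gliJ. AO090001000012 was high mainly in ΔadmA, and gliI was at 0 in 10 libraries. These r may largely restate the ΔadmA difference, and r without the ΔadmA libraries was not computed for them. Control libraries averaged 0.937 ± 1.05 RPKM of gliC (SD, n = 5) and ΔadmA libraries 7.43 ± 7.53 RPKM. The nonribosomal peptide synthetase gene gliP (AO090001000043) did not reach the filter, with a highest value of 1.12 RPKM.

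**Figure D5:**
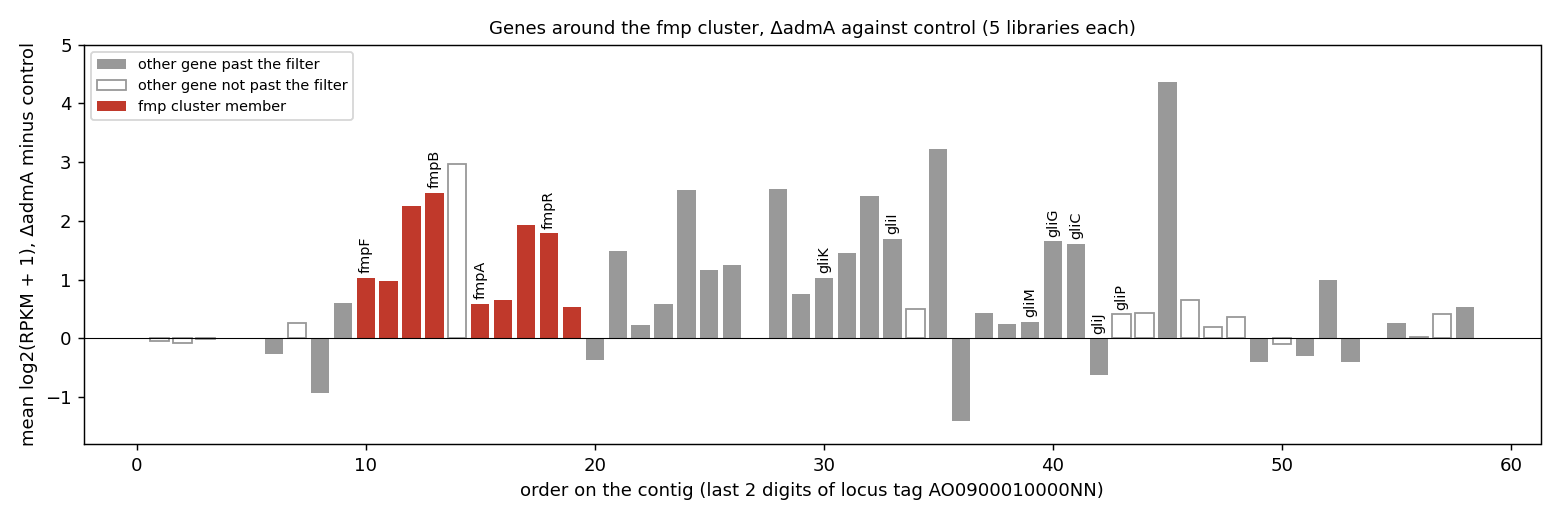
Log2 difference between ΔadmA and the control, on the log2(RPKM + 1) scale, for genes in locus tag order along the start of the contig, with members and flanking genes marked. The 9 members lie between 0.53 and 2.48, and AO090001000014 between them is at 2.97. Flanking genes run from -1.41 to 4.36, so some rise more than any member.

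Lists of genes known from fungi to act on secondary metabolism were compared with fmpR in the same way. The regulator list had 6 of 13 names with an identifier, with a median r with fmpR of 0.09 and 4 of 6 positive. The highest was rsmA, a bZIP factor (r = 0.26), and the lowest hdaA, a histone deacetylase (r = -0.40). The velvet gene veA had r = -0.39, at 43.1 ± 8.32 RPKM (SD, n = 5) in the control and 43.8 ± 17.2 in ΔadmA. Of the cAMP and protein kinase A list, 4 of 12 names had an identifier (median r -0.01, 2 positive), from -0.59 in pkaC, a catalytic subunit of protein kinase A, to 0.58 in gpaA, a G-protein alpha subunit. Of 16 conidiation markers 8 had an identifier, with a median r with fmpR of -0.42 and 3 positive, from -0.60 in wetA, needed for spore maturation, to 0.68 in flbA, a regulator of G-protein signalling. Of other secondary metabolite genes 10 were tested (median r 0.27, 7 positive), from -0.42 in pksP to 0.61 in gliC. In each of the 3 tested contrasts 0 genes of each list passed in limma, beside 0% of all genes.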

How the data were processed

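Per the labels' protocols, each flask held 76.5 g of moist bran medium seeded with conidia, and TruSeq libraries started from 4 µg of RNA. The values deposited by the authors are RPKM for each gene and library, per the file headers. The tools named in the submitters' processing notes are TopHat2 2.0.9, Cufflinks 2.1.1, FastQC 0.10.1 and CASAVA 1.8.2. What each did, its settings, the genome build, the annotation and the use of strand are not given in the sources, so overlapping or antisense genes cannot be told apart.

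RefSeq's gene table for ASM18445v3 held a locus tag for each of the 12074 identifiers and a symbol for 714; it was used for symbols and gene order, without coordinates. The members and lists were chosen with earlier results of these data known. RPKM were used as log2(RPKM + 1), with no count model. Genes of at least 1 RPKM in at least 5 libraries were fitted with 1 mean per strain over all 20 libraries in limma 3.58.1 (R 4.3.3; eBayes with trend, two-sided, Benjamini-Hochberg adjustment over 10652 genes, threshold 0.05). The fit was tested on simulated data. Correlations were computed with pandas 2.3.3. Named genes were the members, the flanking tags, the 10 genes most like fmpR and fmpA, and, of each list, genes past the threshold or otherwise the highest and lowest r with fmpR, with veA always named. From these, at most 1 identifier without a symbol is printed for each of fmpR and fmpA. AO090001000009, AO090001000014, AO090001000020, the gli genes other than gliC, ayg1 and fmpC were chosen after their values were seen.

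Relative depth was read from genes averaging under 1.5 RPKM, where values move in steps: within a library set 84.5% to 100.0% of step ratios agreed within 0.00015 log units, and between sets 5.4% to 34.0%. Steps per gene were found for fmpA, fmpR, AO090001000014 and AO090001000019 and for none of the other members. RPKM summed to 3974009 to 5401733 per library, and 655 to 1260 genes were at 0.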

Additional observations from a re-analysis of the deposited data

Results flagged for a closer look

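In 36 groups of 5 libraries (9 members in 4 strains), the highest or lowest library was compared with the rest by Dixon's criterion, and 4 stood apart. For normal values about 1 in 20 groups (5%) would. The comparison used RPKM without logs, where high values stretch out, and all 4 were the highest of their group. The 5% therefore does not apply, and the 4 are listed as a description. In the control, AO090001000012 was at 1.53 RPKM in replicate 5, with the nearest library at 0.127 RPKM. In ΔadmB, AO090001000012 was at 1.96 RPKM in replicate 4, with the nearest at 0.1203 RPKM. In ΔadmA, fmpB was at 174 RPKM in replicate 1, with the nearest at 6.91 RPKM. In ΔadmAΔadmB, fmpA was at 6.34 RPKM in replicate 5, with the nearest at 2.21 RPKM. Control replicate 5 and ΔadmB replicate 4 were also the highest libraries of their strains for fmpR, at 5.98 and 2.96 RPKM.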

How the results depend on the processing

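The counts of 0 members past the threshold held in all 31 alternatives of each tested contrast. With the filter at a mean of 10 RPKM only 4 of the 9 members were in the fit, fmpR not among them. The count over all genes did not stay at 0. In ΔadmB against the control it was 746 with sample quality weights and 2 in library set 1 alone. Left out here are the counts over all genes in set 2 alone, which holds 1 ΔadmB library. In the other alternatives of the 3 contrasts the count was at most 2. The member median between ΔadmA and the control stayed positive in 32 alternatives (0.78 to 1.36 with 1 library left out, lowest without ΔadmA replicate 3), was 0.84 in library set 1 and 1.87 in set 2, and was 1.42 without control replicate 5 and ΔadmA replicate 1, a choice made after seeing the data; that between ΔadmAΔadmB and ΔadmA ran from -1.57 to -0.995 with 1 library left out. The median r over 36 pairs moved to 0.32 without the ΔadmA libraries and to 0.62 in set 2 alone, and ran from 0.41 to 0.53 with 1 library left out. Single genes reversed in set 1 alone: AO090001000017 to 0.13 in ΔadmB against the control and to -0.005 in ΔadmAΔadmB against ΔadmB, and AO090001000019 to 0.051 in ΔadmAΔadmB against the control. Set 2 alone, with 1 ΔadmB library, kept the directions but moved AO090001000017 to -2.09 in ΔadmB against the control, 1.45 in ΔadmAΔadmB against the control and 3.53 in ΔadmAΔadmB against ΔadmB, and AO090001000019 to -1.79 in ΔadmB and -1.63 in ΔadmAΔadmB against the control. With 1 library left out, AO090001000017 ran from -0.77 to 0.32 in ΔadmB against the control, AO090001000019 from -0.18 to 0.34 in ΔadmAΔadmB against ΔadmB, and fmpR from -0.42 to 0.13 in ΔadmB against the control and from -0.68 to -0.13 in ΔadmAΔadmB against the control; the cause was not tested. The labels do not say that a replicate number marks a shared flask, batch or day, so the numbers were not taken to pair libraries. Deviations of same-numbered libraries correlated by -0.23 to 0.52 (median 0.15, above 0.1 in 19 of 30 pairs), against a median of -0.04 for other numbers, and 11 of 20 libraries correlated best with their own number, a hint of pairing from the data and not from the design. With the replicate block, 0 members passed in the 3 tested contrasts. Depth in reads is unknown, which limits the genes near 1 RPKM, fmpA, fmpB and AO090001000012. It also limits fmpR, with a median of 1.16 RPKM in the 15 libraries of the other strains. The same holds for AO090001000019, which fell to 0.428 RPKM.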
